A study of Mus musculus with 2 samples.

Results

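The 4 Hox clusters are the chromosomal stretches in which the mouse keeps its 39 Hox genes, and they were examined here as 4 fixed intervals of the deposited read coordinates. HoxA was taken as chr6:52100001-52225000, HoxB as chr11:96100001-96240000, HoxC as chr15:102750001-102880000 and HoxD as chr2:74490001-74620000. The intervals cover 525 kb and were cut into bins of 5 kb, 25 in HoxA, 28 in HoxB and 26 each in HoxC and HoxD. These 105 bins are compared with 490650 bins of the same size on chromosomes 1 to 19. The members were thus set by position and not by their reads, although earlier results of these data were known when they were chosen.

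The reads come from ChIP-seq, in which chromatin fragments pulled down by an antibody are sequenced. The antibody was raised against Tnni2, the fast skeletal muscle troponin I, and the cells were primary osteoblasts, the cells that form bone, of the 129sv strain. The mutant library came from mice homozygous for the del175k allele of Tnni2 and the wild-type library from their wild-type littermates, and both groups shared the antibody, strain and cell type. For the animals the series text gives n = 3, without saying how they were combined. Each genotype has 1 library, so each comparison sets 1 library against another, without replicates, and no p-value is given for genotype. No input library was analysed here, and genomic reads give no expression of osteoblast markers, so the labelled cell type was not checked. Reads that share chromosome, 5′ end and strand were counted once, as 1 position, and of these, chromosomes 1 to 19 held 2927228 (mutant) and 2821498 (wild type). All 95% intervals given here cover counting error only.

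Hox genes encode homeodomain transcription factors that set the identity of body segments along the head-to-tail axis and, in the HoxA and HoxD clusters, the parts of the limb. Within each cluster the genes lie in the order in which they act along the axis, with the low-numbered genes at one end for the anterior and the high-numbered genes at the other for the posterior. The clusters hold few interspersed repeats and many CpG islands, and in cells where they are silent they are covered by Polycomb repressive complexes. Limb bone cells are known to retain expression of posterior HoxA and HoxD genes.

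The RefSeq gene table of GRCm38 lists all 39 genes, 11 in HoxA, 10 in HoxB and 9 each in HoxC and HoxD. Along increasing coordinates HoxA ends with Hoxa13, whereas HoxB runs from Hoxb13 to Hoxb1, HoxC from Hoxc13 to Hoxc4 and HoxD from Hoxd13 to Hoxd1. That table is on another build than the reads, so no gene was assigned a read count. In it the stretch from Hoxb13 to Hoxb1 is longer than the 140 kb interval, whereas that from Hoxb9 to Hoxb1 is shorter. The widest space between neighbouring HoxB genes lies between Hoxb13 and Hoxb9. If distances are alike in both builds, the HoxB interval cannot hold all 10 genes, and Hoxb13 may lie outside it. The genes of the HoxA, HoxC and HoxD clusters span less than their intervals. The nearest other protein-coding genes in the table were Skap2 and Evx1 beside HoxA, Ttll6 and Skap1 beside HoxB, Calcoco1 and Smug1 beside HoxC, and Evx2 and Mtx2 beside HoxD. Evx1 and Evx2 are themselves homeobox genes related to the Hox family.

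The base composition of these genes can be seen in their promoters. The RefSeq promoter table (GRCm38.p6) matched 22 of the 39 genes with 24 start sites, and the 250 bases before each start were counted on the gene's strand. The median was 58.6% G or C, with a range of 40.4 to 80.0%, against a median of 52.4% over all 32851 promoters in the table. Of the 24 Hox promoters, 15 (62.5%) held 10 or more CG dinucleotides, against 37.8% of all promoters. Coverage of the table was uneven, with 9 genes of HoxA, 9 of HoxD, 3 of HoxB and 1 of HoxC. Printed below, 5′ to 3′, is the promoter with the most CG dinucleotides in each cluster and, for contrast, the one with the fewest of all, with each CG in capitals. Hoxa13 and Hoxd13, which pattern the digits, had 35 and 31 CG dinucleotides and 80.0% and 74.4% G or C. Hoxb4, best known from blood stem cells, had 14 and Hoxc4 8, and 1 of the 2 starts of Hoxd11, a forearm patterning gene, had 2.
Hoxa13, chr6:52260881-52261130, - strand: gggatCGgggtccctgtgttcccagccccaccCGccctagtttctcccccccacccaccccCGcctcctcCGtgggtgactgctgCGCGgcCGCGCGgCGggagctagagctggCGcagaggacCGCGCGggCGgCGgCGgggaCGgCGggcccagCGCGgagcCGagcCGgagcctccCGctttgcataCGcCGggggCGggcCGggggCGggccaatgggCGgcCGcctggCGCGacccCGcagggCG
Hoxb4, chr11:96318017-96318266, + strand: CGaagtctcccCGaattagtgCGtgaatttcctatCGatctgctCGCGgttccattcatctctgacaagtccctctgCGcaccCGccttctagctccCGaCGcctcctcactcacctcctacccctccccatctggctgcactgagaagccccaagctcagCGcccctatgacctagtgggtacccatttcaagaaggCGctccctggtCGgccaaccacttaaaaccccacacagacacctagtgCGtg
Hoxc4, chr15:103034145-103034394, + strand: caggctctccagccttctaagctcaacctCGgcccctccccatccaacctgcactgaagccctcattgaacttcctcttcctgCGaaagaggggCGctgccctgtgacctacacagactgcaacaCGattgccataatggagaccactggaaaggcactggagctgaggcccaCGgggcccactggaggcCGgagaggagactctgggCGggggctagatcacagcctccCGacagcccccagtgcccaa
Hoxd13, chr2:74667975-74668224, + strand: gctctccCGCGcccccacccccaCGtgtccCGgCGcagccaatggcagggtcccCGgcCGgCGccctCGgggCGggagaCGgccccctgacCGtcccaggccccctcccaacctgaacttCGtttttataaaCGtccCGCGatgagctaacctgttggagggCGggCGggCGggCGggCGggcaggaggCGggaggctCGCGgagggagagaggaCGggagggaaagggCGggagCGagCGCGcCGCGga
Hoxd11, chr2:74679308-74679557, + strand: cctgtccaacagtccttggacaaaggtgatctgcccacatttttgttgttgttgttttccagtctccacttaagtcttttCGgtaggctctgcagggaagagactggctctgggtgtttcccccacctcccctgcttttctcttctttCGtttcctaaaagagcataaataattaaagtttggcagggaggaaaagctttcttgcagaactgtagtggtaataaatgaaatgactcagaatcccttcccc

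None of the 4 clusters stood out as a dense block of reads in either library. HoxA held 149 mutant and 202 wild-type positions, HoxB 215 and 241, HoxC 173 and 210, and HoxD 187 and 204. The sum was 724 mutant positions, 6.90 per 5 kb, and 857 wild-type positions, 8.16 per 5 kb, before scaling. Over all autosomal bins the means were 5.95 and 5.73. All 4 clusters were thus at or above the autosomal mean of both libraries, HoxA in the mutant library with 5.96 per 5 kb by the least. Set among 18410 autosomal windows of the length of HoxA and counted in the libraries together, 20.7% of windows were denser than HoxB, 29.0% than HoxD, 30.9% than HoxC and 35.7% than HoxA. When the windows were divided by density into 5 groups of 3682, all 4 clusters fell in group 4, the second densest.

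**Figure D1:**
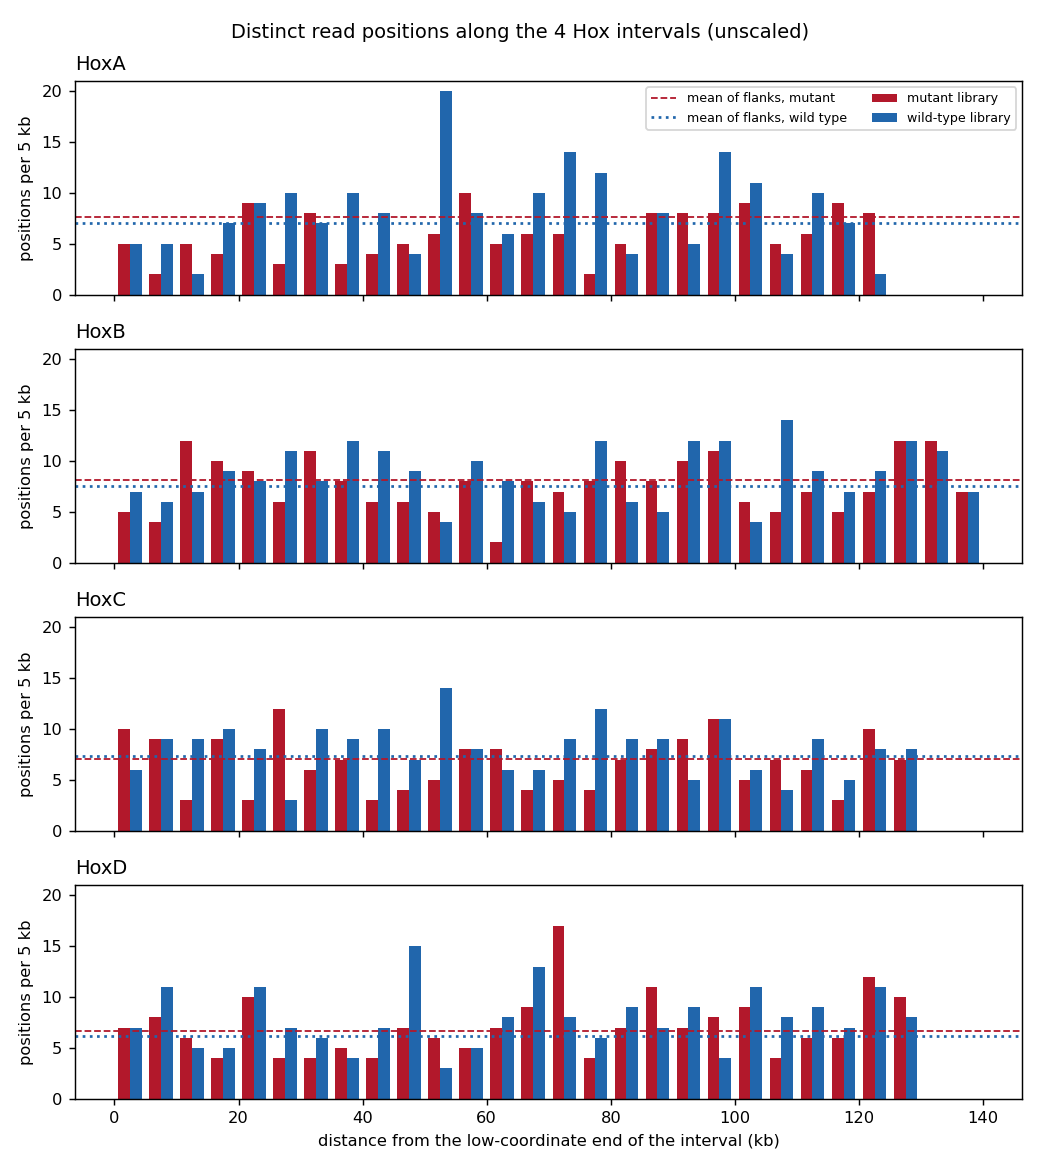
Distinct positions in each 5 kb bin (vertical axis) along the 4 Hox intervals (horizontal axis, kb from the low-coordinate end), red bars for the mutant and blue bars for the wild-type library, with the mean of 500 kb of flank on either side as dashed (mutant) and dotted (wild-type) lines. Bars run from 2 to 20 positions and no bin is empty in either library.

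Against their own surroundings the clusters sat slightly high in the wild-type library and level or low in the mutant library. The density of each interval was divided by that of the 500 kb on either side. HoxA had 0.784 times the density of its flanks among mutant reads (95% exact interval 0.658 to 0.928) and 1.14 times among wild-type reads (0.979 to 1.32). The HoxA flanks held 1520 and 1418 positions before scaling. Scaled to autosomal depth, their ratio of 1.03 (0.960 to 1.11) did not differ from 1 beyond counting error. HoxB had 0.940 (0.811 to 1.08) and 1.15 times the flank density (0.997 to 1.32). HoxC had 0.943 (0.801 to 1.11) and 1.10 times (0.950 to 1.28). Neither of these differed from its flanks beyond counting error in either library. HoxD had 1.08 (0.920 to 1.26) and 1.27 times (1.09 to 1.47), the 1 cluster whose wild-type interval lay above 1. In the 4 clusters together the values were 0.935 (0.864 to 1.01) and 1.16 (1.08 to 1.25). Among the windows, 10.8% had a higher wild-type value than HoxD, 23.5% than HoxB, 24.6% than HoxA and 30.5% than HoxC. For mutant values these shares were 34.3%, 65.0%, 89.2% and 64.3%. The median window of density group 4 had 1.04 times the density of its flanks in either library. No cluster reached 1.5 times its flanks in both libraries, as 1.48% of the windows did. HoxA, HoxB and HoxC, 3 of the 4 clusters, lay above their flanks in the wild-type and below them in the mutant library, a pattern shown by 11.7% of the windows.

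The standing of HoxC depended on how much flank was used. With 1000 kb on either side it had 1.16 (mutant) and 1.32 (wild type) times the flank density, and with 250 kb 0.851 and 0.957 times. HoxD in the mutant library turned from 1.08 to 0.971 when the interval was widened by 50 kb at either end. HoxC in the mutant library turned from 0.943 to 1.09 with that change.

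**Figure D2:**
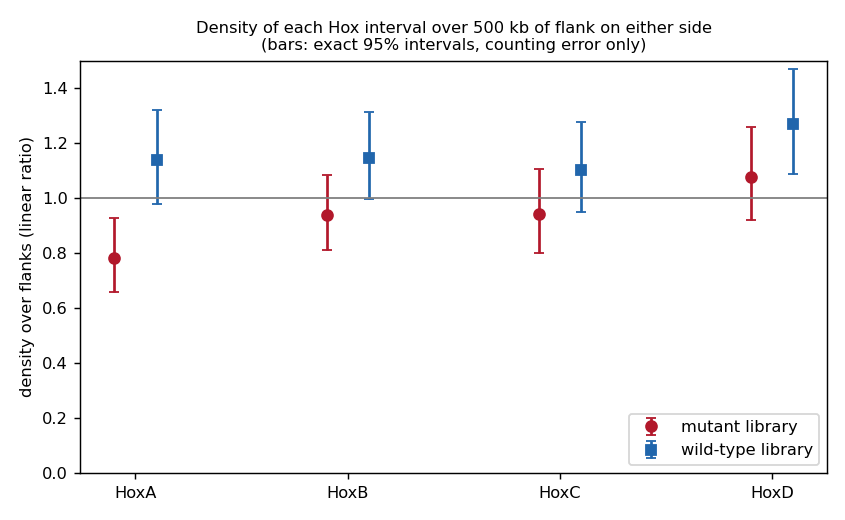
Density of each Hox interval divided by that of 500 kb on either side (vertical axis, linear ratio from 0), circles for the mutant and squares for the wild-type library, with exact 95% intervals as bars. The wild-type value is above the mutant value in all 4 clusters, from 1.14 against 0.784 in HoxA to 1.27 against 1.08 in HoxD.

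The ratio between the libraries was lowest in HoxA. After scaling to autosomal depth, the mutant to wild-type ratio was 0.711 in HoxA (0.571 to 0.883), 0.860 in HoxB (0.712 to 1.04), 0.794 in HoxC (0.646 to 0.976) and 0.884 in HoxD (0.721 to 1.08). For the 525 kb as a whole it was 0.814 (0.737 to 0.900). All 4 ratios were below 1, as were those of 45.4% of the windows. The intervals of HoxA and HoxC lay below 1, as did those of 5.40% of the windows, while 6.45% of windows had an interval above 1. Widened for 4 clusters, the interval of HoxA was 0.539 to 0.935 and that of HoxC 0.610 to 1.03, so only HoxA remained below 1. Of the 6 pairs of clusters, none had ratios that differed from each other beyond counting error. The farthest apart were HoxA and HoxD, with HoxA at 0.805 times the ratio of HoxD (0.602 to 1.08).

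The flanks had ratios nearer 1 than the clusters. Flank ratios were 1.03 for HoxA (0.960 to 1.11), 1.05 for HoxB (0.978 to 1.13), 0.929 for HoxC (from 0.863 to just above 1) and 1.04 for HoxD (0.961 to 1.12). Over the 4 clusters the flank ratio was 1.01 (0.975 to 1.05). Dividing the ratio of a cluster by that of its flanks removes the depth scaling and gave 0.688 for HoxA (0.550 to 0.861), 0.819 for HoxB (0.673 to 0.997), 0.855 for HoxC (0.690 to 1.06) and 0.850 for HoxD (0.687 to 1.05). For the 4 together it was 0.805 (0.724 to 0.894). Beside HoxC the ratio was already lower on the side of Hoxc4, at 0.900 (0.813 to 0.996), than on the side of Hoxc13, at 0.964 (0.865 to 1.07), and these intervals overlapped.

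**Figure D3:**
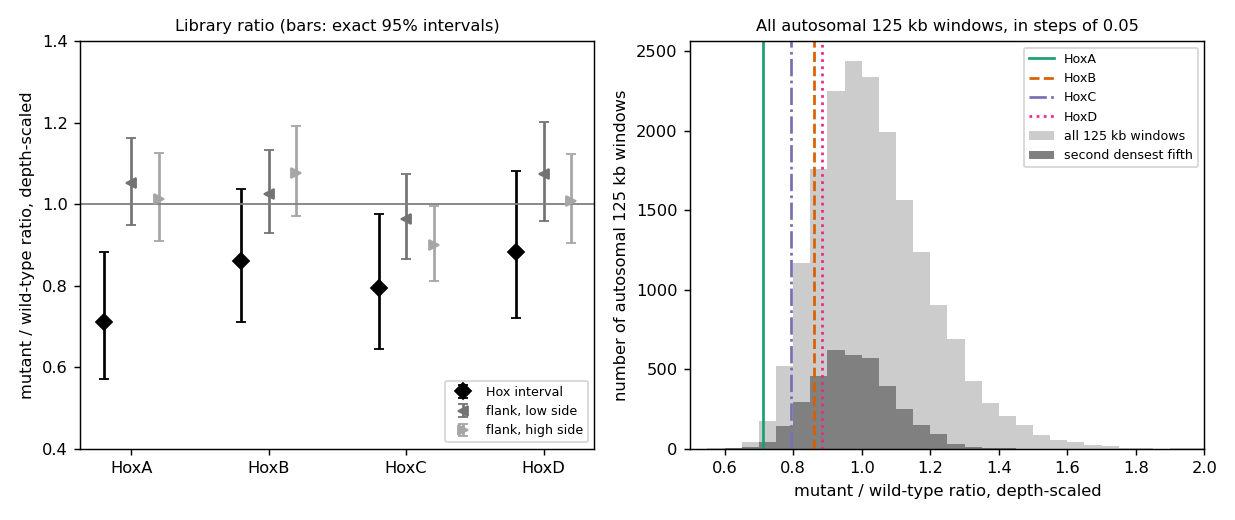
Left, library ratio (mutant over wild type, scaled) of each Hox interval (diamonds) and of the 500 kb on its low and high side (triangles), with exact 95% intervals. Right, number of autosomal windows of the length of HoxA at each ratio in steps of 0.05 (pale for all windows, dark for density group 4 of 5), with the clusters as vertical lines and 3 windows below 0.5 and 8 above 2 not shown. HoxA at 0.711 lies in the low tail and HoxB at 0.860 and HoxD at 0.884 within the body of the windows.

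Among the 18410 windows, 71 (0.386%) had a ratio below that of HoxA. The corresponding shares were 3.55% for HoxC, 12.1% for HoxB and 16.6% for HoxD. Over the autosomes the ratio moved with density, from a median of 1.13 in the sparsest group of windows to 0.922 in the densest. In group 4, which matches the clusters, the median was 0.970, and 0.462%, 4.70%, 15.9% and 21.8% of its windows had a ratio below HoxA, HoxC, HoxB and HoxD. All 4 clusters were below that median. The part of density or base composition in the ratio of the clusters was not tested. Measured against flanks, 0.538% of windows were lower than HoxA, 6.72% lower than HoxB, 10.8% lower than HoxD and 11.6% lower than HoxC. With the interval widened over all windows, 0.103% of windows differed between the libraries. Windows overlapping a Hox interval were left out of these, and the intervals of the clusters were widened for 4 clusters only.

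More wild-type than mutant positions after scaling were seen in most bins of each cluster. In 71 of the 105 bins (67.6%) the scaled count was higher in the wild-type library, as it was in 48.7% of all autosomal bins and in 52.5% of those that were not empty in both libraries. The autosomal bins were not matched to the clusters in density, with which the ratio moved over the windows. Before scaling the wild-type count was higher in 61 bins (58.1%) and equal in 10 (9.52%), against 40.7% and 11.9% of the autosomal bins not empty in both. The 10 bins with equal counts are among the 71 through the scaling alone. By cluster the 71 were 16 of 25 bins in HoxA, 17 of 28 in HoxB, 20 of 26 in HoxC and 18 of 26 in HoxD. Cutting the intervals of HoxB, HoxC and HoxD at their middle gave ratios below 1 on both sides of each. In HoxA the side of Hoxa13 held 81 mutant and 106 wild-type positions, a ratio of 0.737 (0.545 to 0.993). In HoxD the Hoxd13 side held 77 and 94, a ratio of 0.790 (0.576 to 1.08), and the Hoxd1 side 110 in each library, a ratio of 0.964 (0.733 to 1.27). The ratio of the Hoxd1 side is thus below 1 through the scaling alone. The sides of HoxB had 0.831 toward Hoxb13 and 0.887 toward Hoxb1, and those of HoxC 0.769 toward Hoxc13 and 0.821 toward Hoxc4. Within HoxB, HoxC and HoxD the intervals of the side ratios overlapped and each included 1, and the difference between the sides was not tested. In the mutant library the Hoxd1 side of HoxD had 8.46 positions per 5 kb against 5.92 on the Hoxd13 side.

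**Figure D4:**
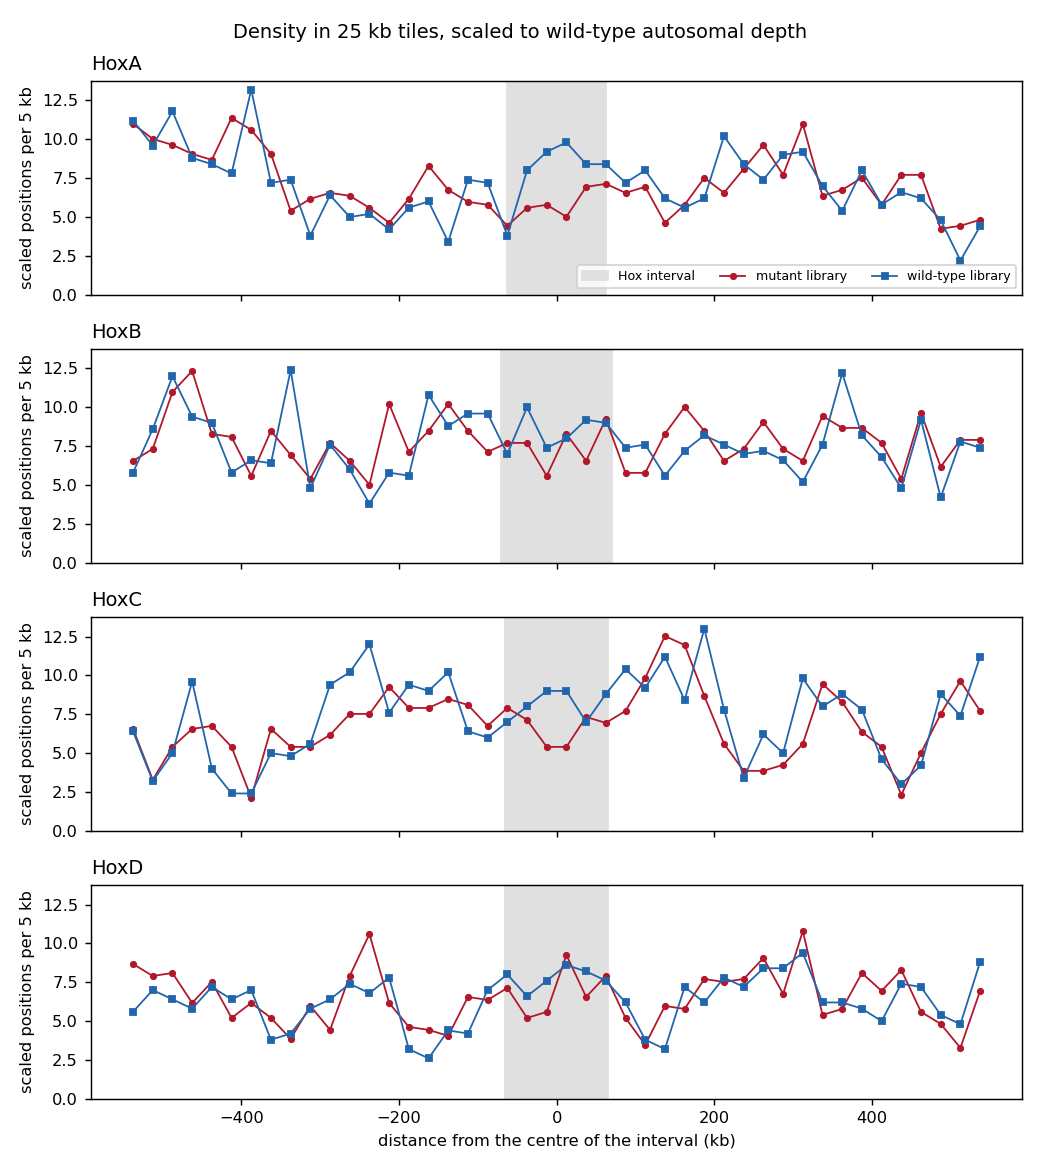
Density in tiles of 25 kb, as positions per 5 kb scaled to wild-type autosomal depth (vertical axis), by distance from the centre of each Hox interval (horizontal axis, kb), circles for the mutant and squares for the wild-type library, with the interval shaded. Inside HoxA the wild-type line runs above the mutant line in all but the tile nearest the low end, while in the flanks the lines cross repeatedly.

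Single bins held few positions. The fullest bin of HoxA, chr6:52150001-52155000, held 6 mutant and 20 wild-type positions, a ratio of 0.289 (0.0950 to 0.747). The wild-type library held 2.79 times its surroundings there and the mutant library 0.811 times. The next, chr6:52195001-52200000, held 8 and 14, and the sparsest, chr6:52105001-52110000, held 2 and 5. In HoxB the fullest bins, chr11:96225001-96230000 and chr11:96195001-96200000, held 12 in each library and 11 and 12. The sparsest, chr11:96150001-96155000, held 5 and 4. In HoxC chr15:102845001-102850000 held 11 in each library, chr15:102765001-102770000 held 9 and 10, and the sparsest bin, chr15:102865001-102870000, held 3 and 5. In HoxD chr2:74560001-74565000 went the other way, with 17 mutant and 8 wild-type positions, a ratio of 2.05 (0.838 to 5.48). That bin was 2.56 times its surroundings in the mutant library. The next fullest HoxD bin, chr2:74610001-74615000, held 12 and 11, and the sparsest, chr2:74505001-74510000, held 4 and 5.

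Bins were compared where the libraries together held 20 or more positions, as in 68344 of the 490650 autosomal bins. In the clusters 17 of the 105 bins did. Of these, 6 (3 in HoxA, 2 in HoxB and 1 in HoxD) had a ratio of 1/1.5 or less, against 21.7% of autosomal bins tested, and 1, in HoxD, a ratio of 1.5 or more, against 13.4%. None differed once the interval was widened over the 68344 bins tested, where 0.0161% did. The tested Hox bins held at most 26 positions in the libraries together. With so few, the widened interval could hardly exclude 1, so this 0 says little about the clusters. The share of tested Hox bins past either fold rests on 7 bins.

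No bin was at 2 times its surroundings (500 kb on either side of the bin) in both libraries, against 1.09% of autosomal bins. Among mutant counts 1 bin was, that in HoxD, against 4.88%. Among wild-type counts 4 were, 2 in HoxA and 2 in HoxD, against 5.51%. At 500 bp no bin of the 1050 in the clusters had a local excess over the 10 kb around it in either library. The Poisson test with Benjamini-Hochberg q under 0.01 over 5277823 bins called 0.00203% of mutant and 0.00212% of wild-type bins. At an unadjusted p under 0.05 there were 32 mutant bins in the clusters (3.05%, against 2.64% of all bins) and 46 wild-type bins (4.38%, against 2.55%). Fewer 500 bp bins were empty in the clusters, 51.3% (mutant) and 47.9% (wild type), against 60.1% and 61.8% on the autosomes. An empty bin cannot pass, and bins of like density were not set apart, so these shares are not directly comparable. The fullest 500 bp bins held 4 or 5 positions, whereas every bin called anywhere held at least 8. In HoxA they were chr6:52156001-52156500, with 5 mutant and 1 wild-type positions, and chr6:52137001-52137500, with 1 and 5. In HoxB they were chr11:96113001-96113500, with 4 and 0, and chr11:96142501-96143000, with 0 and 5. HoxC had chr15:102778501-102779000, with 5 and 1, and chr15:102769001-102769500, with 1 and 4. HoxD had chr2:74562501-74563000, with 4 and 2, and chr2:74513501-74514000, with 1 and 5. Each was chosen as the fullest of 1 library, so the lower count of the other follows in part from the choice. A site bound in a Hox cluster but raised by only a few positions would not be detectable at this depth.

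Coverage within the clusters was mostly even, and least so for HoxA in the wild-type library. None of the 105 bins was empty in either library, whereas 12.0% of autosomal bins were empty in 1 or both and 7.27% in both. Of the windows, 40.9% had no empty 5 kb bin in either library, and 65.1% of those in density group 4 had none. The longest stretch with no 5′ end was 4938 bp for mutant reads, in HoxA, and 6564 bp for wild-type reads, in HoxD. The variance of the bin counts divided by their mean, which is 1 for pure counting noise, was 0.888 in HoxA, 0.888 in HoxB, 1.06 in HoxC and 1.30 in HoxD for mutant counts. For wild-type counts it was 2.12 in HoxA, 0.889 in HoxB, 0.772 in HoxC and 1.07 in HoxD. The 5th to 95th percentiles over the windows of group 4 were 0.832 to 2.48 (mutant) and 0.874 to 2.63 (wild type). HoxC in the wild-type library lay below that range and the other values lay within it. The median over the windows of group 4 was 1.46 (mutant) and 1.53 (wild type). HoxA in the wild-type library was the 1 value of 8 above that median, with bins from 2 to 20 positions.

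Over the 105 bins the counts of the libraries had a Pearson r of 0.14 and a Spearman rho of 0.20, given as a description since neighbouring bins are not replicates. By cluster r and rho were 0.04 and 0.11 in HoxA, 0.26 and 0.28 in HoxB, -0.21 and -0.14 in HoxC, and 0.38 and 0.54 in HoxD, over 25 to 28 bins each. Over all autosomal bins the values were 0.68 and 0.63. Counts there varied far more, with a variance over mean of 3.21 (mutant) and 3.62 (wild type) and with empty bins included. Over the 105 Hox bins it was 1.07 and 1.17. The correlations of the clusters and of the autosomes are therefore not directly comparable. Further reads at an occupied position were 6.94% of the mutant reads in the clusters (5.26 to 8.96%) and 9.22% of the wild-type reads (7.45 to 11.2%). On the autosomes these shares were 8.22% and 11.6%. No position in the clusters held more than 4 reads, and 1 position, in HoxD, was present in both libraries.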

How the data were processed

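ChIP-seq reads with an antibody against Tnni2 were analysed from 1 mutant and 1 wild-type library. The submitters' processing notes name Bowtie as the aligner, and for its version and settings the sources used here give nothing. The authors deposited a score of 255 for each read, which was ignored. The files list 36 bp reads, so counting was done here. Mouse reference 8 is named in the series text, but the last read on chromosome 7 ends at 152524453, which from general knowledge lies beyond mm8 and within mm9. Coordinates are those of the files, 1-based and of uncertain build, except for promoters (GRCm38.p6). The members and lists were chosen with earlier results of these data known.

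Ratios were scaled to distinct positions on chromosomes 1 to 19 and carry exact Clopper-Pearson intervals of the split of counts; those of a cluster over its flanks are normal on the log scale. Windows needed 100 positions, 5 kb bins 20 for a ratio, and the 7 windows overlapping a Hox interval were left out. For the 500 bp test, positions were shifted by 50% of the fragment length (216 bp mutant, 213 bp wild type). Promoter letters were checked on 538 overlapping opposite-strand entries. The text names, per cluster, the 2 fullest and the sparsest 5 kb bins and the fullest 500 bp bin of each library. The calling was tested on simulated data. Scripts ran in Python 3.11.15 (scipy 1.17.1, numpy 2.4.6, matplotlib 3.10.9, pandas 2.3.3).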

Additional observations from a re-analysis of the deposited data

How the results depend on the processing

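Of 85 values recomputed under the alternatives, 82 stayed within the 95% interval of the reported value, or within 1.5 times it for a count. The ratio between the libraries stayed below 1 in every cluster with every aligned read, with the median 100 kb bin as scale and with intervals widened by 50 kb or trimmed by 10 kb. It ranged from 0.658 to 0.754 in HoxA under these settings. With a flank of 1000 kb HoxC moved to 1.16 (mutant) and 1.32 (wild type) times its flanks. With a fold of 1.5 in place of 2, 2 bins were dense in both libraries, against 5.97% of autosomal bins. The causes were not tested. The counts of 0 for bins that differ and for local excesses were again 0 under each alternative run. For bins that differ, the few positions per bin left little room for another outcome. No paired analysis was possible because each genotype has 1 library, which also left no library to omit. Depth limits these results to a mean of 6.90 (mutant) and 8.16 (wild type) positions per 5 kb bin.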

Other observations

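Opposite-strand reads 150 to 249 bp apart, the distance that reads from the ends of similar fragments have, numbered 44 in the 4 Hox clusters of the mutant library, against 15 pairs 500 to 599 bp apart. The quotient was 2.93 (95% exact interval 1.60 to 5.67), and it was 1.51 over the autosomes. In the wild-type library the pairs numbered 58 and 35, a quotient of 1.66 (1.07 to 2.60), and 1.57 over the autosomes. Pairs that share a read are not independent, so these intervals are too narrow, and the difference between the libraries was not tested.

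The forward strand held 42.9% of the wild-type positions in HoxC (95% exact interval 36.1 to 49.8%) and 56.6% of the mutant positions (48.9 to 64.1%). In HoxD it held 42.8% of mutant (35.6 to 50.2%) and 52.0% of wild-type positions. In HoxA and HoxB all shares lay between 51.5 and 56.3%. Of all these shares only that of wild-type positions in HoxC had an interval that excluded an even split. The intervals were not widened for the number of shares, and no background of windows was set beside them.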
